A study of Homo sapiens with 12 samples.

Results

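The genes described here are the non-HLA genes of the human major histocompatibility complex (MHC), the gene-dense stretch of the short arm of chromosome 6 between the HLA loci and around them. A row of the count table was a member when its lowest exon start lay from 29.6 to 33.5 Mb on chromosome 6 (GRCh38) and its mean level reached 1 CPM, the count scaled to the library's total, in at least 1 of the 4 groups. Rows whose symbols start with HLA, TAP, PSMB, HSPA or RPS were left out, as were TNF, LTA, LTB, IER3, MDC1, AIF1 and EHMT2. This gave 101 members of 78892 rows. The members were therefore selected on measured CPM, and a level at or above the threshold is no finding. Because the symbols that were left out were chosen with results of these data known, differences between members and the rows left out are a description.

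The cells were OCI-Ly7, an established human line of germinal-centre diffuse large B-cell lymphoma, and their polyadenylated RNA was sequenced. The combination group (HDAC3i_AZA) received 5-azacitidine at 100 nM daily over days 0 to 4 plus an HDAC3 inhibitor at 15 µM on days 2 and 4, the HDAC3i group only the inhibitor, the AZA group only 5-azacitidine, and the vehicle group neither drug. Each group had 3 libraries from the day 5 harvest. Within co-repressor complexes, HDAC3 takes acetyl groups off histones. The nucleoside 5-azacitidine, once built into DNA, traps the enzymes that methylate it. Which HDAC3 inhibitor was given is not stated in the labels. Nor do they state that libraries of 1 group are separate cultures, and p-values then measure only the spread between these libraries.

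The MHC region is best known for the HLA class I and class II genes, which present peptides to T cells. Between and beside them lie many genes with no part in antigen presentation: stress ligands and TRIM ubiquitin ligases in the class I stretch, complement, cytokine and housekeeping genes in the class III stretch, and chromatin and trafficking genes beyond the class II stretch. These neighbours sit close together, often back to back, and some of their annotated exons overlap, so that a treatment that acts on HLA genes can be followed gene by gene through the same stretch of chromosome.

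The 12 libraries held 35947872 to 36337086 counts each. Members took 0.768% to 0.853% of the counts and mitochondrially encoded rows 9.59% to 15.3%, with 15.3% in combination library 3 and 13.8% in AZA library 1. The B-cell identity of the line was visible in all 12 libraries: 8 of 8 B-cell markers passed 1 CPM, and their summed level was 3897 to 3951 CPM in the combination, 3857 to 3902 CPM with HDAC3i, 3143 to 3224 CPM with AZA and 3009 to 3101 CPM in vehicle. MS4A1 made the largest part of the B-cell sum, with means of 1435 CPM in the combination and 871 in vehicle. BLNK (87.8 and 146) and CD37 (77.9 and 97.5) were lower in the combination, and the other B-cell markers higher. All 4 germinal-centre markers reached 1 CPM, with sums of 294 to 308 CPM in the combination and 350 to 359 CPM in vehicle. LMO2 was higher in the combination than in vehicle, and BCL6, MME and MYBL1 lower. The 4 erythroid markers summed to at most 0.028 CPM in any library. In bulk RNA, fewer cells that express a gene and less of its RNA per cell cannot be told apart.

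Of the 101 members, 95 reached 1 CPM in vehicle and 92 in every group, while 6 were under 1 CPM in vehicle. The class I stretch held 36 members, the class III stretch 42, the class II stretch 3 and the extended class II stretch 20. By biotype, 83 were protein-coding and 10 of another kind, and 8 had no biotype in the annotation used. The median of the members' highest group mean was 20.2 CPM. Just inside the threshold lay VARS2, C4B, a row with no symbol and RANP1, with highest group means of 1.05, 1.07, 1.09 and 1.14 CPM. Just outside it lay a row with no symbol at 0.711 CPM, EGFL8 at 0.758 CPM and 2 more rows with no symbol at 0.770 and 0.959 CPM.

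Levels differed widely between members. Per kilobase of exon, the highest was TUBB, the main beta-tubulin of dividing cells, with a mean of 434 CPM per kilobase in the combination and 563 in vehicle. CLIC1, an intracellular chloride channel protein, followed with 176 CPM per kilobase in the combination and 173 in vehicle, and then MRPS18B, a protein of the mitochondrial ribosome, with 87.3 and 84.4. In vehicle the lowest levels were those of ENSG00000291111, with 0.222 CPM per kilobase in the combination and 0.00754 in vehicle, TNXB with 0.136 and 0.0458, and NOTCH4 with 0.807 and 0.0738.

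With the inhibitor alone, 31 of 101 members rose and 26 fell at an adjusted p under 0.05 in edgeR's quasi-likelihood test, against 26.4% called higher and 24.9% called lower among the 17869 genes tested. With AZA alone, 5 members rose and 1 fell, beside 4.31% and 4.75% of all genes. In the combination against vehicle, 29 members rose and 27 fell, beside 29.6% and 27.5% of all genes. All 101 members were tested. The members' median log2 fold changes were 0.01 for HDAC3i, -0.02 for AZA and 0.02 for the combination, and the medians of all genes tested were 0.00, 0.00 and 0.01. The shares of members called in either direction with the inhibitor and in the combination were thus near the background of the whole table. With a filter of 5 CPM in at least 3 libraries the combination gave 28 rises and 15 falls, and the inhibitor alone 25 and 18. Among the 13818 genes with at least 1 CPM in some group, 30.6% were called higher and 34.4% lower in the combination. With HDAC3i these shares were 27.6% and 31.5%, and with AZA 5.31% and 6.08%. Beside these genes of like level, falls were less common among members. They made up 26.7% in the combination, 25.7% with HDAC3i and 0.990% with AZA. This difference was not tested.

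A member that passed the threshold only in the group where it was high had to differ. The 6 members under 1 CPM in vehicle are NCR3, NOTCH4, TNXB and 3 rows with no symbol, and the level rule already fixed that another group be higher for each. VARS2 reached 1 CPM in vehicle alone, so the rule fixed that vehicle be its highest group. Counted over the 97 members with a mean of at least 1 CPM over all libraries, 26 rose and 27 fell in the combination. NCR3, NOTCH4 and TNXB are still among these 97, since their high groups raise that mean. This count therefore still holds rises that the rule favoured. At a change of at least 2-fold, 9 members were called higher and 0 lower in the combination, beside 14.9% and 1.28% of all genes tested. With HDAC3i 7 were higher and 1 lower, beside 12.5% and 0.867%, and with AZA 0 in either direction, beside 0.851% and 0.0728%. Among the 13818 genes with at least 1 CPM in some group, 1635 were higher and 105 lower by 2-fold or more in the combination. Large rises thus outnumbered large falls in the whole table as well. Of the 9 members, NCR3, NOTCH4, TNXB, ENSG00000291111 and ENSG00000310006 were under 1 CPM in vehicle, so the level rule favoured their rise.

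**Figure D1:**
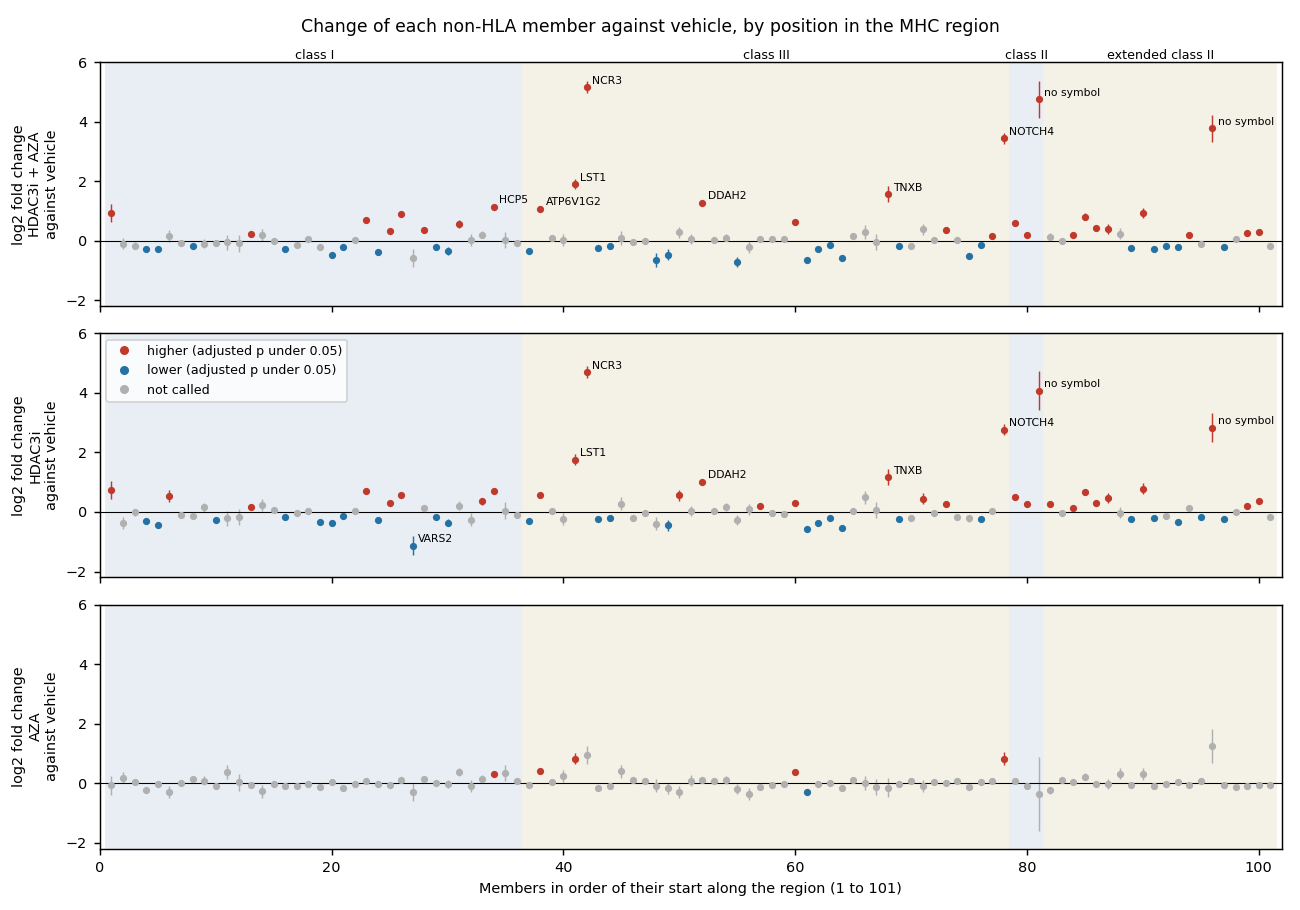
Log2 fold change (vertical axis) of each of the 101 members against vehicle, in order of their start along the region (horizontal axis), with 1 panel per treatment. Points are edgeR estimates and bars their SE, red and blue points passed an adjusted p of 0.05, and shading marks the 4 stretches. The largest rise, that of NCR3, stands next to the rise of LST1, and 6 points pass in the AZA panel.

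The rows left out by symbol behaved differently as counts. Of the 18 HLA rows of the same window and level, 16 rose and 0 fell in the combination against vehicle, with a median log2 fold change of 1.04, beside the members' median of 0.02. The other 17 rows left out by symbol had 10 rises and 1 fall. Among the genes of the same level in the 4 Mb before the window, 22 of 45 rose and 5 fell in the combination, and in the 4 Mb after it 18 of 49 rose and 12 fell. By stretch, the class I stretch had 8 rises and 9 falls among 36 members, the class III stretch 9 and 13 among 42, the class II stretch 3 and 0 among 3, and the extended class II stretch 9 and 5 among 20. Over all genes tested, 29.6% were called higher and 27.5% lower in the combination. No test of a difference between these sets was run. The rises of each stretch include members under 1 CPM in vehicle, whose rise the level rule favoured. They are ENSG00000309476 in class I, NCR3, NOTCH4 and TNXB in class III, ENSG00000291111 in class II and ENSG00000310006 in extended class II. The counts by stretch are therefore a description.

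**Figure D2:**
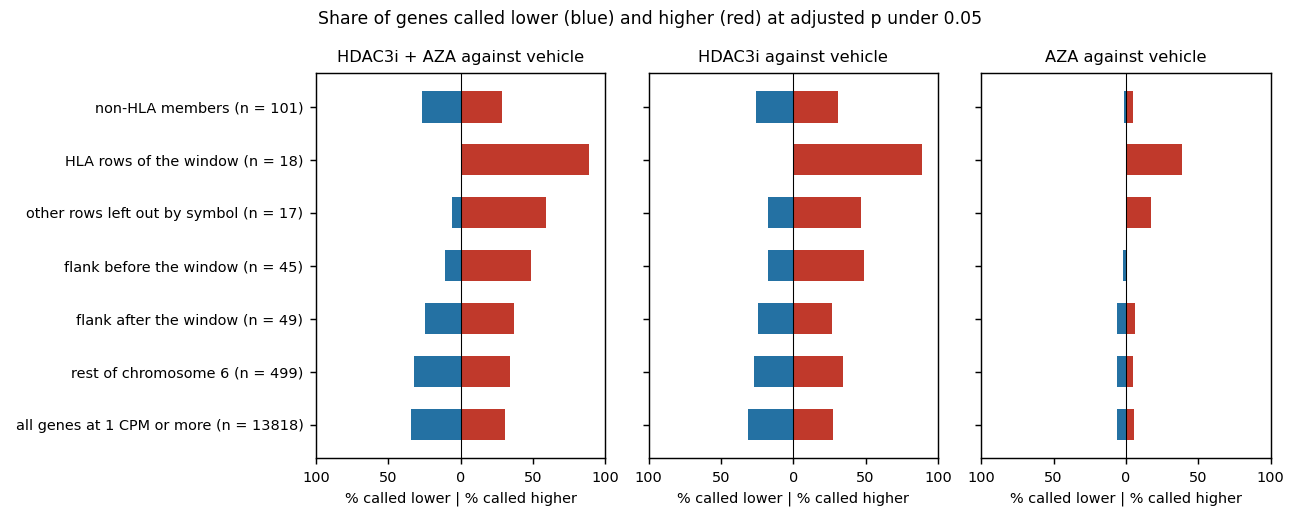
Percentage of genes called lower (blue, to the left) and higher (red, to the right) at an edgeR adjusted p under 0.05, for the combination, HDAC3i and AZA against vehicle. Rows are the 101 members, the rows of the same window left out by symbol, the flanks of 4 Mb, the rest of chromosome 6 and all genes at 1 CPM or more. In the combination 28.7% of members were called higher and 26.7% lower, beside 30.6% and 34.4% of all genes at 1 CPM or more. Of the 18 HLA rows, 88.9% were called higher in the combination.

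Promoter sequences are shown for 5 members whose changes the results below turn on: 4 that rose, from a CpG-poor to a CpG-richer start, and ZBTB12, the one member that fell with AZA alone. Each is the RefSeq sequence (GRCh38.p14) of 250 bases before to 50 bases after the annotated start, read 5′ to 3′ on the gene's own strand, with each CpG in capitals, since CpG is the site of the DNA methylation that 5-azacitidine acts on. Of the 101 members, 77 matched an entry by symbol. NCR3 is not among them.
LST1 (chr6:31586027-31586326, plus strand): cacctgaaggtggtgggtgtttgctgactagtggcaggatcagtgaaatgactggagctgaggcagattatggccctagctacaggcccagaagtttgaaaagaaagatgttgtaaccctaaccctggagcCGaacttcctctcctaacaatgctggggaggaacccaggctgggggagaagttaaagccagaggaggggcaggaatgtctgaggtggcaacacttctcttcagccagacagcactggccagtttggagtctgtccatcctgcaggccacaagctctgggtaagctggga
NOTCH4 (chr6:32224018-32224317, minus strand): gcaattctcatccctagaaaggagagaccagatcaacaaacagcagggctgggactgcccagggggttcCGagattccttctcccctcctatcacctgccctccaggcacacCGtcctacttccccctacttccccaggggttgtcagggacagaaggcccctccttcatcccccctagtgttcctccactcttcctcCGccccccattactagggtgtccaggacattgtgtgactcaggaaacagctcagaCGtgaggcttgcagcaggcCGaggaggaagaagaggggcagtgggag
HCP5 (chr6:31462930-31463229, plus strand): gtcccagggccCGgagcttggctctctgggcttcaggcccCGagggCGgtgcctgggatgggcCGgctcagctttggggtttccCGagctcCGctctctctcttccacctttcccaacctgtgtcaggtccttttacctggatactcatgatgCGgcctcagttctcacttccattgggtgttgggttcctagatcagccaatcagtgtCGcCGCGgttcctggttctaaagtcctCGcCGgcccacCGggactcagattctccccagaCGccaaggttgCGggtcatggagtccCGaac
NEU1 (chr6:31862772-31863071, minus strand): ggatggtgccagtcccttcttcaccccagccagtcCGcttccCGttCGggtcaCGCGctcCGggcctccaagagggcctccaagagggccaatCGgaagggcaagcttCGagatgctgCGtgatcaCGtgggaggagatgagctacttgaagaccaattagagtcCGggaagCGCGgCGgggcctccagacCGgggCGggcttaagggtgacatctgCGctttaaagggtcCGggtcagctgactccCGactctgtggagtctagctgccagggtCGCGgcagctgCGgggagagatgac
ZBTB12 (chr6:31902037-31902336, minus strand): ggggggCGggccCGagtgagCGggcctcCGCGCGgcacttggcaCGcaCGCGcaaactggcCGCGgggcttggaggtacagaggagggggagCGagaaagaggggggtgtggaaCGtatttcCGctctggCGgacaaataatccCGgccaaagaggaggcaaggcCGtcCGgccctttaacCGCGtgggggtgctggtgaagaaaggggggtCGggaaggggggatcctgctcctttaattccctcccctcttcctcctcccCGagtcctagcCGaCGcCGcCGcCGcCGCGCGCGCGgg

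These windows held 1 CpG in LST1, 5 in NOTCH4, 16 in HCP5, 22 in NEU1 and 32 in ZBTB12. Observed over expected CpG was 0.0471, 0.195, 0.570, 0.733 and 0.914 in the same order. A ratio of at least 0.6, a usual mark of a CpG island, was met by 70.1% of the 77 members' windows and by 13368 of the 27305 windows of the table. Among the members called higher in the combination it was met by 14 of 21, and among those called lower by 21 of 26.

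The motifs searched on both strands were CCAAT (the NF-Y box), CACGTG (the E-box), TTCNNNGAA (a STAT site), TGACGTCA and TGACGNNA (cAMP response elements), the NF-kB motif, and the core of the interferon-stimulated response element, which is a pair of GAAA blocks with any 2 bases between them. CCAAT was found in 45.5% of members' windows and 35.7% of all windows, and the E-box in 7.79% and 7.43%. The interferon-response core was found in 7.79% of members' windows and 3.65% of all windows, and the STAT site in 1.30% and 7.88%. The NF-kB motif was found in 11.7% and 10.8%, TGACGTCA in 2.60% and 1.98%, and TGACGNNA, which includes TGACGTCA, in 9.09% and 7.82%. The HCP5 window held CCAAT and the NF-kB motif and the NEU1 window CCAAT and the E-box, whereas none of these letters were in the LST1, NOTCH4 and ZBTB12 windows. Of the 6 members with the interferon-response core, 1 was called higher and 4 lower in the combination, beside 29.6% and 27.5% of all genes. A match is a description of these letters and no evidence that a factor binds.

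Immune genes of the class III stretch held the largest rise of all members, that of NCR3, while the complement genes C4A and C4B did not pass. Of 9 members listed, 2 rose and 2 fell in the combination against vehicle, beside 29.6% and 27.5% of all genes. The other 5 did not pass. With HDAC3i 3 rose and 1 fell, beside 26.4% and 24.9% of all genes. NCR3 (chr6:31588895-31593006, minus strand) encodes NKp30, an activating receptor of natural killer cells. Its level was 20.1, 18.8 and 19.7 CPM in the combination, 12.9, 14.6 and 15.3 CPM with HDAC3i, 1.10, 0.942 and 1.11 CPM with AZA, against 0.414, 1.05 and 0.166 CPM in vehicle. All 6 libraries with the inhibitor lay far above the 6 without it, and the AZA and vehicle libraries overlapped. NCR3 was under 1 CPM in vehicle, so the level rule fixed that another group be higher. Its p-values against vehicle are therefore a description and no support. The log2 fold change was 5.16 ± 0.20 (SE; edgeR adjusted p = 1.36e-17) in the combination and 4.70 ± 0.21 (SE; edgeR adjusted p = 2.91e-16) with HDAC3i, both against vehicle. With AZA alone it was 0.94 ± 0.31 (SE; edgeR adjusted p = 0.0553).

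LST1 (chr6:31586124-31588909, plus strand) lies tail to tail with NCR3, shares 0.658% of its exonic bases with it, and encodes a small leukocyte membrane protein. It measured 4.62, 4.60 and 4.56 CPM in the combination, 4.01, 4.06 and 4.43 CPM with HDAC3i, 1.96, 2.49 and 2.09 CPM with AZA, against 1.27, 1.61 and 0.804 CPM in vehicle. All AZA libraries lay above all vehicle libraries and below all libraries with the inhibitor. On the log2 scale the change was 1.91 ± 0.18 (SE; edgeR adjusted p = 6.38e-10) in the combination, 1.76 ± 0.18 (SE; edgeR adjusted p = 5.47e-09) with HDAC3i and 0.82 ± 0.19 (SE; edgeR adjusted p = 0.00614) with AZA. The AZA call was lost without vehicle library 3 (0.61, edgeR adjusted p = 0.0565).

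Both genes are known from other blood cells, so their markers stand here beside them. Of 6 T and NK cell markers 3 reached 1 CPM, with a summed level of 13.4 to 15.6 CPM in the combination, 8.49 to 10.1 CPM with HDAC3i, 2.40 to 2.59 CPM with AZA and 1.79 to 2.66 CPM in vehicle. CD8A had no count in any library and CD2 counts in 2 libraries. CD3E averaged 9.01 CPM in the combination and 1.02 in vehicle, CD3G 2.93 and 0.0922, NKG7 2.06 and 1.01, and CD3D 0.368 and 0.0185. Of 6 monocyte and granulocyte markers 1 reached 1 CPM, with sums of 2.59 to 3.35 CPM in the combination, 1.41 to 2.02 CPM with HDAC3i, 0.139 to 0.389 CPM with AZA and 0.332 to 0.497 CPM in vehicle, and S100A8 had no count. LYZ, the monocyte and granulocyte marker that reached 1 CPM, averaged 2.18 CPM in the combination and 0.0185 in vehicle. CSF1R averaged 0.516 and 0.0184 CPM, and CD14 0.203 and 0.360. The part of other cells in these results was not tested.

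AGER (chr6:32180968-32184322, minus strand), the receptor for advanced glycation end products, fell in the combination. It measured 8.06, 5.78 and 5.77 CPM in the combination, 8.33, 7.76 and 8.13 CPM with HDAC3i, 7.67, 8.59 and 9.54 CPM with AZA, against 9.03, 10.1 and 8.79 CPM in vehicle. The combination libraries lay below all 3 vehicle libraries and the highest of them overlapped the HDAC3i libraries. Its log2 fold change was -0.51 ± 0.11 (SE; edgeR adjusted p = 3.75e-04) in the combination and -0.21 ± 0.11 (SE; edgeR adjusted p = 0.119) with HDAC3i. The combination against HDAC3i gave -0.30 ± 0.11 (SE; edgeR adjusted p = 0.116), which passed without combination library 1 (-0.45, edgeR adjusted p = 0.0225).

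LY6G5B, a member of the LY6 family with 69% of its exonic bases in exons of other rows, had means of 2.67 ± 0.681 CPM in the combination, 2.70 ± 0.515 CPM with HDAC3i, 3.29 ± 0.351 CPM with AZA and 3.69 ± 0.837 CPM in vehicle (SD, n = 3 each). The log2 fold change in the combination was -0.46 ± 0.19 (SE; edgeR adjusted p = 0.0375), and this call was lost in a fit of the compared groups alone (-0.45, edgeR adjusted p = 0.0514), with the library number as a block (-0.31, edgeR adjusted p = 0.190), without combination library 1 (-0.43, edgeR adjusted p = 0.0943), without combination library 2 (-0.30, edgeR adjusted p = 0.192) and without vehicle library 2 (-0.28, edgeR adjusted p = 0.262). C4A and C4B, near-identical genes of complement component 4 whose reads the counting may split, were low. C4A averaged 1.39 ± 0.0815 CPM in the combination, 1.60 ± 0.0982 CPM with HDAC3i, 1.14 ± 0.138 CPM with AZA and 1.13 ± 0.273 CPM in vehicle and C4B 1.003 ± 0.201 CPM in the combination, 1.07 ± 0.119 CPM with HDAC3i, 0.945 ± 0.215 CPM with AZA and 1.02 ± 0.286 CPM in vehicle (SD, n = 3 each). Neither passed in the combination against vehicle, with 0.30 ± 0.22 (SE; edgeR adjusted p = 0.261) and -0.02 ± 0.27 (SE; edgeR adjusted p = 0.947) in that order. C4A with HDAC3i was 0.49 ± 0.22 (SE; edgeR adjusted p = 0.0588) and passed without mitochondrially encoded rows (0.51, edgeR adjusted p = 0.0495) and without vehicle library 2 (0.69, edgeR adjusted p = 0.0204). LY6G5C, another gene of the LY6 family, rose with HDAC3i at 0.57 ± 0.18 (SE; edgeR adjusted p = 0.0114) and gave 0.29 ± 0.19 (SE; edgeR adjusted p = 0.198) in the combination. C2 and CFB, complement genes of the same stretch, were under the threshold at no more than 0.710 and 0.102 CPM in any group and are not members.

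Complement genes elsewhere in the genome, listed for comparison, had 14 of 29 genes tested. In the combination 9 rose and 2 fell, beside 29.6% and 27.5% of all genes. C3, the central complement component, averaged 3.91 CPM in the combination, 2.41 with HDAC3i, 0.572 with AZA and 0.157 in vehicle. CR2, the complement receptor of mature B cells, averaged 89.2, 88.9, 39.8 and 34.9 CPM in the same order. Their log2 fold changes in the combination were 4.61 ± 0.30 (SE; edgeR adjusted p = 3.27e-13) and 1.36 ± 0.06 (SE; edgeR adjusted p = 3.92e-17).

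**Figure D3:**
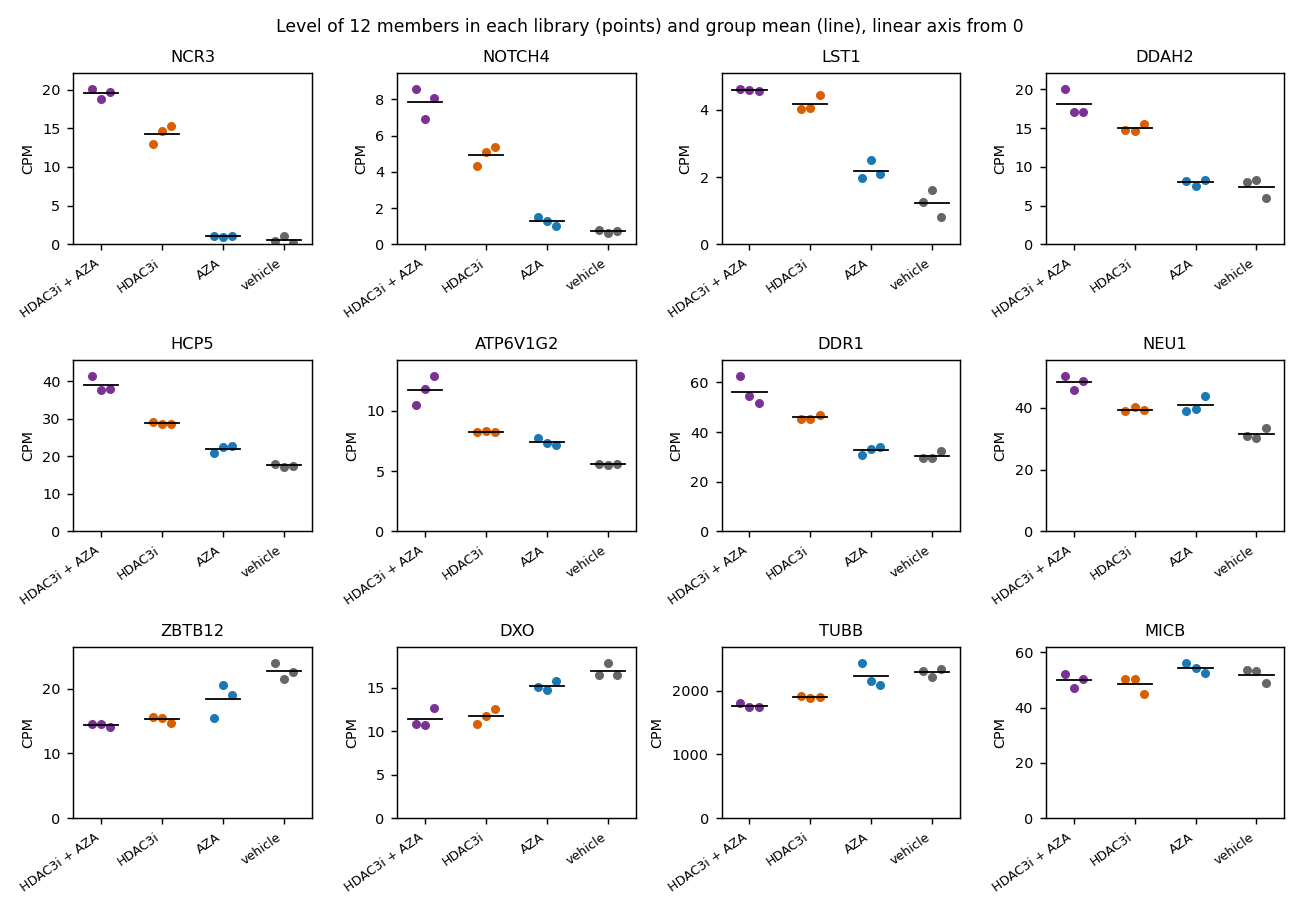
Level in CPM (vertical axis, linear from 0) of 12 members in each of the 12 libraries, with the combination, HDAC3i, AZA and vehicle from left to right. Points are libraries and lines group means; NCR3, NOTCH4, LST1 and DDAH2 were high in the 6 libraries with the inhibitor, HCP5 and ATP6V1G2 were ordered combination, HDAC3i, AZA, vehicle with no overlap, and each treated group overlapped vehicle in MICB.

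Among the immune genes of the class I stretch, the long non-coding RNA HCP5 rose most. Of 8 members listed, 2 rose, 1 fell and 5 did not pass in the combination, where 29.6% of all genes rose and 27.5% fell. With HDAC3i 3 rose and 1 fell, beside 26.4% and 24.9%. HCP5 (chr6:31463144-31494470, plus strand) is a long non-coding RNA gene between MICA and MICB that carries endogenous retroviral sequence. It measured 41.4, 37.6 and 38.0 CPM in the combination, 29.2, 28.5 and 28.7 CPM with HDAC3i, 20.95, 22.3 and 22.8 CPM with AZA, against 18.0, 17.2 and 17.5 CPM in vehicle. The 4 groups did not overlap and stood in the order combination, HDAC3i, AZA, vehicle. The fit gave a log2 fold change of 1.15 ± 0.07 (SE; edgeR adjusted p = 2.65e-14) in the combination, 0.71 ± 0.07 (SE; edgeR adjusted p = 1.05e-09) with HDAC3i and 0.32 ± 0.07 (SE; edgeR adjusted p = 0.00228) with AZA. The combination exceeded HDAC3i alone by 0.45 ± 0.06 (SE; edgeR adjusted p = 5.37e-05) and AZA alone by 0.83 ± 0.06 (SE; edgeR adjusted p = 2.01e-11).

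Its neighbours MICA and MICB encode the stress ligands of the NKG2D receptor on natural killer and T cells. MICA measured 5.40, 5.34 and 5.14 CPM in the combination, 6.28, 6.08 and 5.37 CPM with HDAC3i, 5.17, 5.13 and 4.98 CPM with AZA, against 4.61, 5.18 and 3.96 CPM in vehicle. All HDAC3i libraries lay above the vehicle libraries, and the combination libraries overlapped the highest vehicle library. Against vehicle, the log2 fold change was 0.36 ± 0.12 (SE; edgeR adjusted p = 0.0128) with HDAC3i and 0.21 ± 0.12 (SE; edgeR adjusted p = 0.138) in the combination. The HDAC3i call was lost without HDAC3i library 1 (0.31, edgeR adjusted p = 0.0627) and without vehicle library 3 (0.28, edgeR adjusted p = 0.0843), and the combination passed with the stricter filter (0.29, edgeR adjusted p = 0.0343). MICB measured 52.0, 47.1 and 50.4 CPM in the combination, 50.3, 50.3 and 45.1 CPM with HDAC3i, 56.3, 54.3 and 52.6 CPM with AZA, against 53.6, 53.2 and 49.05 CPM in vehicle. The libraries of each treated group overlapped those of vehicle, while all AZA libraries lay above all HDAC3i libraries. The log2 fold change was -0.05 ± 0.06 (SE; edgeR adjusted p = 0.486) in the combination, -0.10 ± 0.06 (SE; edgeR adjusted p = 0.195) with HDAC3i and 0.06 ± 0.06 (SE; edgeR adjusted p = 0.618) with AZA.

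The other NKG2D ligands, on another arm of chromosome 6, were listed for comparison. Of 6 genes 3 were tested, and all 3 rose with HDAC3i and in the combination, beside 26.4% and 29.6% of all genes. ULBP1 averaged 3.36 CPM in the combination, 3.70 with HDAC3i, 1.45 with AZA and 1.29 in vehicle, a log2 fold change of 1.38 ± 0.19 (SE; edgeR adjusted p = 8.0e-07) in the combination. For ULBP2 it was 1.22 ± 0.20 (SE; edgeR adjusted p = 8.41e-06) and for ULBP3 0.84 ± 0.12 (SE; edgeR adjusted p = 1.39e-06). The difference between the MIC genes and the ULBP genes was not tested.

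TRIM26, a ubiquitin ligase known from antiviral signalling, averaged 149 ± 3.52 CPM in the combination, 146 ± 5.56 CPM with HDAC3i, 156 ± 3.58 CPM with AZA and 155 ± 1.11 CPM in vehicle (SD, n = 3 each), with -0.05 ± 0.05 (SE; edgeR adjusted p = 0.360) in the combination. HCG18, a long non-coding RNA gene, averaged 27.0 ± 1.01 CPM in the combination, 28.2 ± 1.55 CPM with HDAC3i, 34.0 ± 2.04 CPM with AZA and 30.8 ± 0.916 CPM in vehicle (SD, n = 3 each). Its log2 fold change was -0.18 ± 0.06 (SE; edgeR adjusted p = 0.0172) in the combination against vehicle and -0.32 ± 0.06 (SE; edgeR adjusted p = 1.35e-04) against AZA. The call against vehicle was lost without AZA library 1 and combination library 3 together (-0.15, edgeR adjusted p = 0.0869), in a fit of the compared groups alone (-0.17, edgeR adjusted p = 0.0529), with the stricter filter (-0.10, edgeR adjusted p = 0.155), without combination library 3 (-0.16, edgeR adjusted p = 0.0623) and without vehicle library 1 (-0.18, edgeR adjusted p = 0.0540). HCG27, another long non-coding RNA gene, rose by 0.56 ± 0.13 (SE; edgeR adjusted p = 8.36e-04) in the combination, and TRIM39, a ubiquitin ligase, fell by 0.26 on the log2 scale with HDAC3i (edgeR adjusted p = 0.0173) and was not called in the combination. RNF39, a RING finger gene, rose with HDAC3i at 0.54 ± 0.19 (SE; edgeR adjusted p = 0.0169) and gave 0.17 ± 0.19 (SE; edgeR adjusted p = 0.471) in the combination.

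Transcription and chromatin genes moved both ways. Of 16 members, 5 rose, 6 fell and 5 did not pass in the combination, where 29.6% of all genes rose and 27.5% fell. With HDAC3i 3 rose and 7 fell, beside 26.4% and 24.9%. NOTCH4 (chr6:32194843-32224067, minus strand) encodes a Notch receptor best known from blood vessels. It measured 8.58, 6.94 and 8.09 CPM in the combination, 4.34, 5.11 and 5.37 CPM with HDAC3i, 1.52, 1.28 and 1.03 CPM with AZA, against 0.773, 0.637 and 0.748 CPM in vehicle. The 4 groups did not overlap and had the same order as those of HCP5. NOTCH4 was under 1 CPM in vehicle too, so the level rule fixed that another group be higher. Its p-values against vehicle are likewise a description and no support. On the log2 scale the change was 3.45 ± 0.18 (SE; edgeR adjusted p = 2.76e-15) in the combination, 2.77 ± 0.18 (SE; edgeR adjusted p = 1.09e-12) with HDAC3i and 0.82 ± 0.22 (SE; edgeR adjusted p = 0.0178) with AZA. The combination exceeded HDAC3i by 0.68 ± 0.13 (SE; edgeR adjusted p = 0.00184) and AZA by 2.63 ± 0.16 (SE; edgeR adjusted p = 1.56e-13). The AZA call was lost without AZA library 1 and combination library 3 together (0.65, edgeR adjusted p = 0.106), with limma voom (0.79, adjusted p = 0.0810), in a fit of the compared groups alone (0.82, edgeR adjusted p = 0.0555), without AZA library 1 (0.65, edgeR adjusted p = 0.103) and without vehicle library 2 (0.73, edgeR adjusted p = 0.0796). Of 6 epithelial and stromal markers, among them the endothelial PECAM1, 2 reached 1 CPM and their sum was 86.4 to 97.3 CPM in the combination, 75.6 to 78.3 CPM with HDAC3i, 74.0 to 77.4 CPM with AZA and 63.0 to 69.0 CPM in vehicle, with KRT8, KRT18 and COL1A2 at 0. PECAM1 averaged 85.4 CPM in the combination and 66.2 in vehicle, and COL1A1 6.35 and 0.0554. The part of other cells in the NOTCH4 result was not tested.

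BRD2 (chr6:32968594-32981505, plus strand), a BET protein that binds acetylated histones, measured 543, 476 and 549 CPM in the combination, 535, 567 and 540.5 CPM with HDAC3i, 433, 419 and 436 CPM with AZA, against 454, 458 and 460.1 CPM in vehicle. Every library with the inhibitor lay above every library without it. Its log2 fold change was 0.20 ± 0.05 (SE; edgeR adjusted p = 0.00255) in the combination and 0.25 ± 0.05 (SE; edgeR adjusted p = 2.58e-04) with HDAC3i. RING1 (chr6:33208500-33212722, plus strand), the ubiquitin ligase of Polycomb repressive complex PRC1, measured 105, 88.6 and 94.8 CPM in the combination, 88.4, 86.9 and 92.0 CPM with HDAC3i, 61.3, 74.7 and 72.6 CPM with AZA, against 68.5, 68.8 and 77.1 CPM in vehicle. It showed the same separation, with 0.43 ± 0.07 (SE; edgeR adjusted p = 2.72e-06) in the combination and 0.31 ± 0.07 (SE; edgeR adjusted p = 2.45e-04) with HDAC3i. CCHCR1, a coiled-coil protein of centrosomes and P-bodies, rose by 0.35 ± 0.07 (SE; edgeR adjusted p = 1.48e-04) in the combination and was not called with HDAC3i at 0.14 ± 0.07 (SE; edgeR adjusted p = 0.124). ZBTB22, a zinc-finger protein, gave 0.20 ± 0.08 (SE; edgeR adjusted p = 0.0410) in the combination.

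ZBTB12 (chr6:31899613-31902086, minus strand), a zinc-finger protein, fell most among the transcription genes. It measured 14.5, 14.5 and 14.0 CPM in the combination, 15.6, 15.4 and 14.7 CPM with HDAC3i, 15.4, 20.6 and 19.0 CPM with AZA, against 24.0, 21.4 and 22.6 CPM in vehicle. All treated libraries lay below all vehicle libraries, and AZA library 1 overlapped the HDAC3i range. The fit gave a log2 fold change of -0.66 ± 0.08 (SE; edgeR adjusted p = 2.09e-07) in the combination, -0.58 ± 0.08 (SE; edgeR adjusted p = 2.11e-06) with HDAC3i and -0.31 ± 0.08 (SE; edgeR adjusted p = 0.0154) with AZA. The AZA call was lost without AZA library 1 and combination library 3 together (-0.23, edgeR adjusted p = 0.100), without AZA library 1 (-0.22, edgeR adjusted p = 0.106), without vehicle library 1 (-0.27, edgeR adjusted p = 0.0988) and without vehicle library 3 (-0.31, edgeR adjusted p = 0.0560).

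NELFE, a subunit of the complex that pauses RNA polymerase II, measured 93.3, 91.4 and 89.7 CPM in the combination, 86.6, 80.8 and 90.0 CPM with HDAC3i, 107, 110.2 and 110.2 CPM with AZA, against 111, 109 and 111 CPM in vehicle. The 6 libraries with the inhibitor lay below the 6 without it, with a log2 fold change of -0.27 ± 0.05 (SE; edgeR adjusted p = 7.98e-05) in the combination and -0.37 ± 0.05 (SE; edgeR adjusted p = 1.29e-06) with HDAC3i. POLR1H, a subunit of RNA polymerase I, averaged 12.2 ± 1.37 CPM in the combination, 12.02 ± 0.757 CPM with HDAC3i, 12.6 ± 0.913 CPM with AZA and 14.8 ± 1.30 CPM in vehicle (SD, n = 3 each). It gave -0.28 ± 0.10 (SE; edgeR adjusted p = 0.0136) in the combination and -0.31 ± 0.10 (SE; edgeR adjusted p = 0.00870) with HDAC3i. The combination call was lost without AZA library 1 and combination library 3 together (-0.18, edgeR adjusted p = 0.125), with the stricter filter (-0.20, edgeR adjusted p = 0.0737), without combination library 3 (-0.20, edgeR adjusted p = 0.0998) and without vehicle library 3 (-0.22, edgeR adjusted p = 0.0839), and the HDAC3i call without HDAC3i library 3 (-0.26, edgeR adjusted p = 0.0541) and without vehicle library 3 (-0.25, edgeR adjusted p = 0.0590). TCF19, ATF6B and PBX2, transcription factors of this list, also fell in the combination, by 0.22, 0.17 and 0.14 on the log2 scale.

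DAXX (chr6:33318558-33323016, minus strand), the chaperone of histone H3.3, averaged 170.4 ± 8.97 CPM in the combination, 164 ± 2.63 CPM with HDAC3i, 192 ± 10.9 CPM with AZA and 184 ± 3.63 CPM in vehicle (SD, n = 3 each). Its log2 fold change was -0.17 ± 0.06 (SE; edgeR adjusted p = 0.0129) with HDAC3i and -0.11 ± 0.06 (SE; edgeR adjusted p = 0.111) in the combination. The HDAC3i call was lost with the stricter filter (-0.10, edgeR adjusted p = 0.138) and without vehicle library 1 (-0.16, edgeR adjusted p = 0.0511). The combination against AZA gave -0.17 ± 0.06 (SE; edgeR adjusted p = 0.0148), lost without AZA library 1 and combination library 3 together (-0.08, edgeR adjusted p = 0.256), in a fit of the compared groups alone (-0.16, edgeR adjusted p = 0.0516), with the stricter filter (-0.09, edgeR adjusted p = 0.138) and without AZA library 1 (-0.08, edgeR adjusted p = 0.220). RXRB, a retinoid X receptor, averaged 67.8 ± 1.34 CPM in the combination, 66.3 ± 2.69 CPM with HDAC3i, 72.8 ± 1.94 CPM with AZA and 67.4 ± 2.15 CPM in vehicle (SD, n = 3 each) and did not pass, with 0.01 ± 0.05 (SE; edgeR adjusted p = 0.844) in the combination. POU5F1, known from pluripotent cells, was under the threshold at no more than 0.664 CPM in any group and is not a member. Of 26 tested relatives and partners of BRD2, TUBB, RXRB, RING1, PBX2, DAXX, ATF6B and PHF1 elsewhere in the genome, 8 rose and 9 fell in the combination. The shares over all genes were 29.6% and 27.5%.

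**Figure D4:**
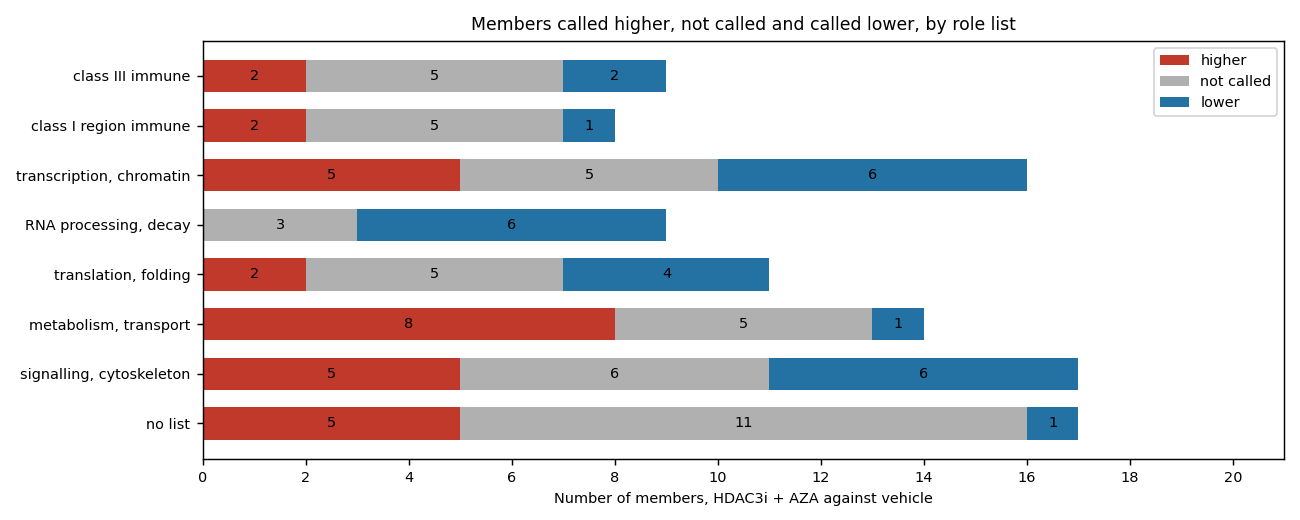
Number of members (horizontal axis) called higher (red), not called (grey) and called lower (blue) in the combination against vehicle, for each of 7 role lists and the members in no list. Metabolism and transport has 8 rises among 14 members, and RNA processing and decay has 6 falls and 0 rises among 9. The counts include rises that the level rule favoured, those of NCR3, NOTCH4, TNXB and rows with no symbol. Over all genes tested, 29.6% were called higher and 27.5% lower.

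RNA processing and decay genes fell or did not pass. Of 9 members, 0 rose and 6 fell in the combination, beside 29.6% and 27.5% of all genes. With HDAC3i 0 rose and 6 fell, beside 26.4% and 24.9%. The members' median log2 fold changes were -0.19 and -0.21 in that order. With AZA alone 0 of the 9 passed in edgeR. DDX39B (chr6:31530219-31542448, minus strand), a helicase of splicing and messenger RNA export, measured 97.7, 73.5 and 87.4 CPM in the combination, 85.4, 93.3 and 88.3 CPM with HDAC3i, 101, 106 and 109 CPM with AZA, against 109, 116 and 101 CPM in vehicle. All libraries with the inhibitor lay below all libraries without it. Against vehicle, the log2 fold change was -0.33 ± 0.07 (SE; edgeR adjusted p = 1.25e-04) in the combination and -0.29 ± 0.07 (SE; edgeR adjusted p = 6.16e-04) with HDAC3i. DDX39B shares 29.7% of its exonic bases with the readthrough row ATP6V1G2-DDX39B and 35.6% with all other rows together, and reads over shared bases were not counted for either.

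DXO (chr6:31969810-31972290, minus strand), an enzyme that removes incomplete caps from RNA and degrades it, measured 10.9, 10.7 and 12.6 CPM in the combination, 10.9, 11.8 and 12.6 CPM with HDAC3i, 15.1, 14.8 and 15.8 CPM with AZA, against 16.5, 17.9 and 16.5 CPM in vehicle. The combination and HDAC3i libraries overlapped each other and lay below all AZA and vehicle libraries. The log2 fold change was -0.57 ± 0.09 (SE; edgeR adjusted p = 3.84e-06) in the combination, -0.53 ± 0.09 (SE; edgeR adjusted p = 1.12e-05) with HDAC3i and -0.16 ± 0.09 (SE; edgeR adjusted p = 0.292) with AZA. It shares 26% of its exonic bases, mainly with STK19. WDR46, a nucleolar protein of ribosomal RNA processing, averaged 143 ± 2.69 CPM in the combination, 149 ± 2.98 CPM with HDAC3i, 161 ± 8.24 CPM with AZA and 172 ± 7.95 CPM in vehicle (SD, n = 3 each) and gave -0.27 ± 0.05 (SE; edgeR adjusted p = 5.79e-05) in the combination. PRRC2A, a protein that binds methylated messenger RNA, averaged 516 ± 52.9 CPM in the combination, 521 ± 31.4 CPM with HDAC3i, 545 ± 22.3 CPM with AZA and 609 ± 18.7 CPM in vehicle (SD, n = 3 each) and gave -0.23 ± 0.06 (SE; edgeR adjusted p = 0.00203). SKIC2, the helicase of the superkiller complex that feeds the RNA exosome, and DHX16, a splicing helicase, fell by 0.14 and 0.19 on the log2 scale in the combination.

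Genes of translation and protein folding were split. Of 11 members, 2 rose, 4 fell and 5 did not pass in the combination, where 29.6% of all genes rose and 27.5% fell. With HDAC3i 3 rose and 4 fell, beside 26.4% and 24.9%. PPP1R11 (chr6:30066709-30070333, plus strand), an inhibitor of protein phosphatase 1, measured 75.3, 72.2 and 69.3 CPM in the combination, 67.6, 62.3 and 66.7 CPM with HDAC3i, 86.2, 87.6 and 88.5 CPM with AZA, against 87.9, 88.2 and 88.2 CPM in vehicle. The libraries with the inhibitor lay below all others, and those of HDAC3i alone lay below those of the combination. On the log2 scale the change was -0.28 ± 0.05 (SE; edgeR adjusted p = 5.04e-05) in the combination and -0.43 ± 0.05 (SE; edgeR adjusted p = 1.37e-07) with HDAC3i. ABCF1, a factor of translation initiation, averaged 217 ± 6.39 CPM in the combination, 232 ± 1.89 CPM with HDAC3i, 245 ± 6.58 CPM with AZA and 262 ± 6.60 CPM in vehicle (SD, n = 3 each) and gave -0.26 ± 0.05 (SE; edgeR adjusted p = 6.73e-05) in the combination.

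BAG6 (chr6:31639028-31652705, minus strand), a chaperone of membrane proteins that has also been described as a ligand of the NCR3 product, averaged 310.1 ± 9.72 CPM in the combination, 308 ± 7.20 CPM with HDAC3i, 327 ± 9.30 CPM with AZA and 351 ± 7.18 CPM in vehicle (SD, n = 3 each). It fell in the combination with -0.18 ± 0.05 (SE; edgeR adjusted p = 0.00309), which was lost with the stricter filter (-0.09, edgeR adjusted p = 0.0740), and with HDAC3i with -0.19 ± 0.05 (SE; edgeR adjusted p = 0.00170). GNL1, a GTP-binding protein, averaged 164 ± 4.78 CPM in the combination, 158 ± 2.58 CPM with HDAC3i, 134 ± 4.26 CPM with AZA and 139 ± 2.67 CPM in vehicle (SD, n = 3 each) and rose by 0.24 ± 0.05 (SE; edgeR adjusted p = 1.72e-04). CUTA, a small protein of the brain acetylcholinesterase membrane anchor, rose by 0.25 ± 0.05 (SE; edgeR adjusted p = 2.09e-04). VARS1, the cytosolic valyl-tRNA synthetase, rose with HDAC3i, at 0.20 ± 0.05 (SE; edgeR adjusted p = 0.00143), and gave 0.06 ± 0.05 (SE; edgeR adjusted p = 0.342) in the combination. VARS2, its mitochondrial counterpart, averaged 0.700 ± 0.316 CPM in the combination, 0.479 ± 0.0841 CPM with HDAC3i, 0.859 ± 0.109 CPM with AZA and 1.05 ± 0.0979 CPM in vehicle (SD, n = 3 each), with a log2 fold change of -1.13 with HDAC3i, the one fall beyond 2-fold among the members. Since the level rule fixed that vehicle be its highest group, this is a description with no test. It shares 63% of its exonic bases with another row.

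Of the 7 role lists, metabolism and transport had the largest share of rises in the combination. Of 14 members, 8 rose, 1 fell and 5 did not pass in the combination, where 29.6% of all genes rose and 27.5% fell. With HDAC3i 9 rose and 2 fell, beside 26.4% and 24.9%. The members' median log2 fold changes were 0.29 and 0.27 in that order. Both counts of rises include TNXB, under 1 CPM in vehicle and AZA, whose rise the level rule favoured. The list also holds the matrix genes TNXB and COL11A2, which its name does not cover. DDAH2 (chr6:31727038-31730617, minus strand), of the family that breaks down methylated arginines, measured 20.1, 17.1 and 17.1 CPM in the combination, 14.7, 14.7 and 15.5 CPM with HDAC3i, 8.19, 7.48 and 8.26 CPM with AZA, against 8.03, 8.34 and 5.93 CPM in vehicle. The 6 libraries with the inhibitor lay above the 6 without it, and AZA overlapped vehicle. Its log2 fold change was 1.29 ± 0.10 (SE; edgeR adjusted p = 2.81e-11) in the combination, 1.01 ± 0.10 (SE; edgeR adjusted p = 6.07e-09) with HDAC3i and 0.10 ± 0.11 (SE; edgeR adjusted p = 0.658) with AZA. Its neighbour CLIC1, whose exons overlap 1.57% of those of DDAH2, averaged 342 ± 23.5 CPM in the combination, 342 ± 16.3 CPM with HDAC3i, 351 ± 16.7 CPM with AZA and 336 ± 16.3 CPM in vehicle (SD, n = 3 each) and gave 0.03 ± 0.06 (SE; edgeR adjusted p = 0.696).

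ATP6V1G2 (chr6:31544444-31548427, minus strand), a subunit of the vacuolar proton pump, measured 10.5, 11.8 and 12.9 CPM in the combination, 8.22, 8.37 and 8.24 CPM with HDAC3i, 7.75, 7.29 and 7.18 CPM with AZA, against 5.55, 5.54 and 5.60 CPM in vehicle. The 4 groups did not overlap, in the order combination, HDAC3i, AZA, vehicle. The fit gave a log2 fold change of 1.08 ± 0.10 (SE; edgeR adjusted p = 1.26e-09) in the combination, 0.57 ± 0.11 (SE; edgeR adjusted p = 7.3e-05) with HDAC3i and 0.41 ± 0.11 (SE; edgeR adjusted p = 0.0157) with AZA. The AZA call was lost without AZA library 1 and combination library 3 together (0.35, edgeR adjusted p = 0.0555), without AZA library 1 (0.35, edgeR adjusted p = 0.0695), without vehicle library 1 (0.41, edgeR adjusted p = 0.0548) and without vehicle library 2 (0.39, edgeR adjusted p = 0.0564). The readthrough row with DDX39B overlaps 13.5% of its exonic bases, and all other rows together 22.9%.

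NEU1 (chr6:31857063-31862905, minus strand), the lysosomal sialidase, measured 50.4, 45.8 and 48.8 CPM in the combination, 38.8, 40.1 and 39.3 CPM with HDAC3i, 39.1, 39.6 and 44.0 CPM with AZA, against 30.9, 30.3 and 33.6 CPM in vehicle. All combination libraries lay above all others and all vehicle libraries below, and HDAC3i and AZA overlapped. Against vehicle, the log2 fold change was 0.62 ± 0.06 (SE; edgeR adjusted p = 4.58e-09) in the combination, 0.32 ± 0.06 (SE; edgeR adjusted p = 1.86e-04) with HDAC3i and 0.37 ± 0.06 (SE; edgeR adjusted p = 3.55e-04) with AZA. HSD17B8, a dehydrogenase of steroids and of mitochondrial fatty acid synthesis, measured 16.9, 20.0 and 17.7 CPM in the combination, 17.2, 14.9 and 17.6 CPM with HDAC3i, 10.7, 11.9 and 13.7 CPM with AZA, against 8.42, 11.3 and 11.4 CPM in vehicle. The libraries with the inhibitor lay above the others, and AZA overlapped vehicle. It rose by 0.82 ± 0.11 (SE; edgeR adjusted p = 3.3e-07) in the combination and 0.67 ± 0.11 (SE; edgeR adjusted p = 9.95e-06) with HDAC3i.

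Other risers of this list in the combination, chosen after their values were seen, were TNXB, the matrix protein tenascin-X, at 1.57 with no test, B3GALT4, a galactosyltransferase of ganglioside synthesis, at 0.93 ± 0.18 (SE; edgeR adjusted p = 5.73e-05), AGPAT1, an acyltransferase of phospholipid synthesis, at 0.38 ± 0.09 (SE; edgeR adjusted p = 8.1e-04), and SLC39A7, a zinc transporter, at 0.19 ± 0.05 (SE; edgeR adjusted p = 0.00175). TNXB averaged 2.16 ± 0.361 CPM in the combination, 1.65 ± 0.346 CPM with HDAC3i, 0.651 ± 0.241 CPM with AZA and 0.729 ± 0.216 CPM in vehicle (SD, n = 3 each), so that its change rests on low counts, and the level rule fixed that a group with the inhibitor be its highest. VPS52, a tethering protein of Golgi traffic, was the one that fell, at -0.24 ± 0.06 (SE; edgeR adjusted p = 6.23e-04). COL11A2, a collagen chain gene, rose with HDAC3i at 0.27 ± 0.11 (SE; edgeR adjusted p = 0.0490) and gave 0.14 ± 0.11 (SE; edgeR adjusted p = 0.328) in the combination. ATAT1, the acetyltransferase of alpha-tubulin, fell with HDAC3i at -0.34 ± 0.10 (SE; edgeR adjusted p = 0.00511) and gave -0.19 ± 0.10 (SE; edgeR adjusted p = 0.0913) in the combination.

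Signalling, cytoskeleton and cell division genes also went both ways. Of 17 members, 5 rose, 6 fell and 6 did not pass in the combination, where 29.6% of all genes rose and 27.5% fell. With HDAC3i 5 rose and 4 fell, beside 26.4% and 24.9%. TUBB (chr6:30717435-30725538, plus strand), the member with the most counts, measured 1807, 1751 and 1745 CPM in the combination, 1919, 1892 and 1902 CPM with HDAC3i, 2445, 2161 and 2088 CPM with AZA, against 2316, 2211 and 2343 CPM in vehicle. The libraries with the inhibitor lay below all others. The log2 fold change was -0.37 ± 0.06 (SE; edgeR adjusted p = 7.82e-06) in the combination and -0.27 ± 0.06 (SE; edgeR adjusted p = 4.5e-04) with HDAC3i. TUBB has pseudogenes among which multi-mapping reads were split. Of its relatives elsewhere, TUBB4B averaged 826 CPM in the combination and 1050.4 in vehicle, and TUBB4A 119 and 38.9, with log2 fold changes of -0.34 ± 0.06 (SE; edgeR adjusted p = 8.09e-06) and 1.62 ± 0.07 (SE; edgeR adjusted p = 2.62e-17).

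DDR1 (chr6:30876421-30900156, plus strand), a receptor kinase for collagen, measured 62.7, 54.5 and 51.6 CPM in the combination, 45.4, 45.2 and 47.1 CPM with HDAC3i, 30.6, 33.2 and 33.8 CPM with AZA, against 29.6, 29.4 and 32.5 CPM in vehicle. The combination lay above HDAC3i, and HDAC3i above AZA and vehicle, which overlapped. On the log2 scale the change was 0.89 ± 0.07 (SE; edgeR adjusted p = 1.07e-11) in the combination and 0.58 ± 0.07 (SE; edgeR adjusted p = 4.61e-08) with HDAC3i, and the combination exceeded HDAC3i by 0.30 ± 0.07 (SE; edgeR adjusted p = 0.00422). NRM, a protein of the inner nuclear membrane, measured 55.0, 50.9 and 57.3 CPM in the combination, 50.2, 58.6 and 54.6 CPM with HDAC3i, 41.5, 31.9 and 31.5 CPM with AZA, against 33.2, 33.8 and 33.7 CPM in vehicle. The libraries with the inhibitor lay above the others, and the log2 fold change was 0.70 ± 0.09 (SE; edgeR adjusted p = 1.47e-07) in the combination and 0.69 ± 0.09 (SE; edgeR adjusted p = 2.65e-07) with HDAC3i.

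FLOT1, a scaffold of membrane microdomains, averaged 160.0 ± 12.5 CPM in the combination, 154 ± 2.36 CPM with HDAC3i, 121 ± 1.94 CPM with AZA and 126 ± 1.37 CPM in vehicle (SD, n = 3 each) and rose by 0.35 ± 0.05 (SE; edgeR adjusted p = 2.97e-06) in the combination. GPSM3, a modulator of G-protein signalling in leukocytes, averaged 90.1 ± 6.21 CPM in the combination, 83.4 ± 4.00 CPM with HDAC3i, 84.6 ± 5.31 CPM with AZA and 80.5 ± 5.06 CPM in vehicle (SD, n = 3 each) and gave 0.17 ± 0.06 (SE; edgeR adjusted p = 0.0208) in the combination, lost without combination library 1 (0.13, edgeR adjusted p = 0.107) and without vehicle library 2 (0.10, edgeR adjusted p = 0.186). For the combination against AZA it gave 0.10 ± 0.06 (SE; edgeR adjusted p = 0.163), which passed with the stricter filter (0.17, edgeR adjusted p = 0.0143).

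C6orf136 averaged 18.2 ± 1.21 CPM in the combination, 19.7 ± 0.966 CPM with HDAC3i, 26.3 ± 2.01 CPM with AZA and 25.5 ± 0.595 CPM in vehicle (SD, n = 3 each) and fell with -0.48 ± 0.08 (SE; edgeR adjusted p = 9.99e-06) in the combination and -0.38 ± 0.08 (SE; edgeR adjusted p = 2.39e-04) with HDAC3i. RGL2, which activates Ral GTPases, gave -0.32 ± 0.06 (SE; edgeR adjusted p = 6.48e-05) with HDAC3i and -0.22 ± 0.06 (SE; edgeR adjusted p = 0.00266) in the combination. KIFC1, a spindle motor that clusters centrosomes, averaged 211 ± 6.15 CPM in the combination, 205 ± 4.20 CPM with HDAC3i, 231 ± 10.1 CPM with AZA and 242 ± 6.51 CPM in vehicle (SD, n = 3 each) and gave -0.19 ± 0.05 (SE; edgeR adjusted p = 0.00112). PRRT1, a synaptic membrane protein in the brain, rose with HDAC3i at 0.45 ± 0.18 (SE; edgeR adjusted p = 0.0416) and gave 0.39 ± 0.18 (SE; edgeR adjusted p = 0.0677) in the combination. SAPCD1, CSNK2B and TUBB were the other members of this list that fell, besides C6orf136, RGL2 and KIFC1. SAPCD1 shares 74% of its exonic bases with the readthrough row MSH5-SAPCD1, and CSNK2B, the regulatory subunit of casein kinase 2, was counted at no more than 1.71 CPM in any group, with 29% of its exonic bases shared.

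Of the 17 members in no role list, 5 rose and 1 fell in the combination, beside 29.6% and 27.5% of all genes. The rises include ENSG00000291111, ENSG00000310006 and ENSG00000309476, all under 1 CPM in vehicle and AZA. The level rule fixed that a group with the inhibitor be highest for each, so this count is a description. ENSG00000309476 averaged 1.32 CPM in the combination, 1.14 with HDAC3i, 0.646 with AZA and 0.683 in vehicle. Among all members, 12 have no gene symbol. The 2 largest rises among these 12 were ENSG00000291111 and ENSG00000310006. ENSG00000291111 measured 1.08, 0.963 and 1.22 CPM in the combination, 0.609, 0.635 and 0.802 CPM with HDAC3i, 0.0276, 0.0554 and 0 CPM with AZA, against 0, 0.111 and 0 CPM in vehicle. It had no count in 1 AZA library and in 2 vehicle libraries, where 0 counts allow up to 0.0835 and 0.0832 CPM. ENSG00000310006 measured 1.72, 1.73 and 1.99 CPM in the combination, 0.719, 0.856 and 1.27 CPM with HDAC3i, 0.276, 0.222 and 0.445 CPM with AZA, against 0.166, 0 and 0.222 CPM in vehicle. The libraries with the inhibitor lay above all others in both. Both are among the 4 members under 1 CPM in vehicle and AZA, so the choice of members fixed that they be high with the inhibitor, and their folds rest on few counts.

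What AZA changed by itself came down to 6 members in edgeR. HCP5, ATP6V1G2, LST1, NEU1 and NOTCH4 rose, and ZBTB12 fell. For NOTCH4, under 1 CPM in vehicle, the level rule fixed that another group be higher. The rises lay between 0.32 for HCP5 and 0.82 for LST1 on the log2 scale, and the AZA libraries of all 5 lay above those of vehicle. NEU1 kept its call under every alternative run. HCP5 kept it in all 23 alternative fits, but its log2 fold change of 0.321 missed the minimum size of 0.322 set in a further alternative. The 4 others lost their call in at least 1 alternative fit, as given above. Without AZA library 1 the count of rises was 3, and without vehicle library 1 or 3 that of falls was 0. The HDAC3i and AZA values stand side by side above, since both comparisons use the same vehicle libraries.

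In the comparison of the combination with AZA alone, which asks what the inhibitor adds, 33 members rose and 22 fell, beside 28.7% and 25.1% of all genes. It shares no library with HDAC3i against vehicle. Over the 101 members, the log2 fold changes of these 2 comparisons had a Pearson correlation of 0.963 and a Spearman correlation of 0.880, and without NCR3, NOTCH4 and the members under a mean of 1 CPM the Pearson correlation over 95 members was 0.902. These are descriptions over genes, which are not independent. Of the members called, 30 rose in both and 18 fell in both, and 0 were called in opposite directions. This was 96.8% of those that rose with HDAC3i against vehicle and 90.9% of those that rose in the combination against AZA. For the falls it was 69.2% and 81.8%.

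**Figure D5:**
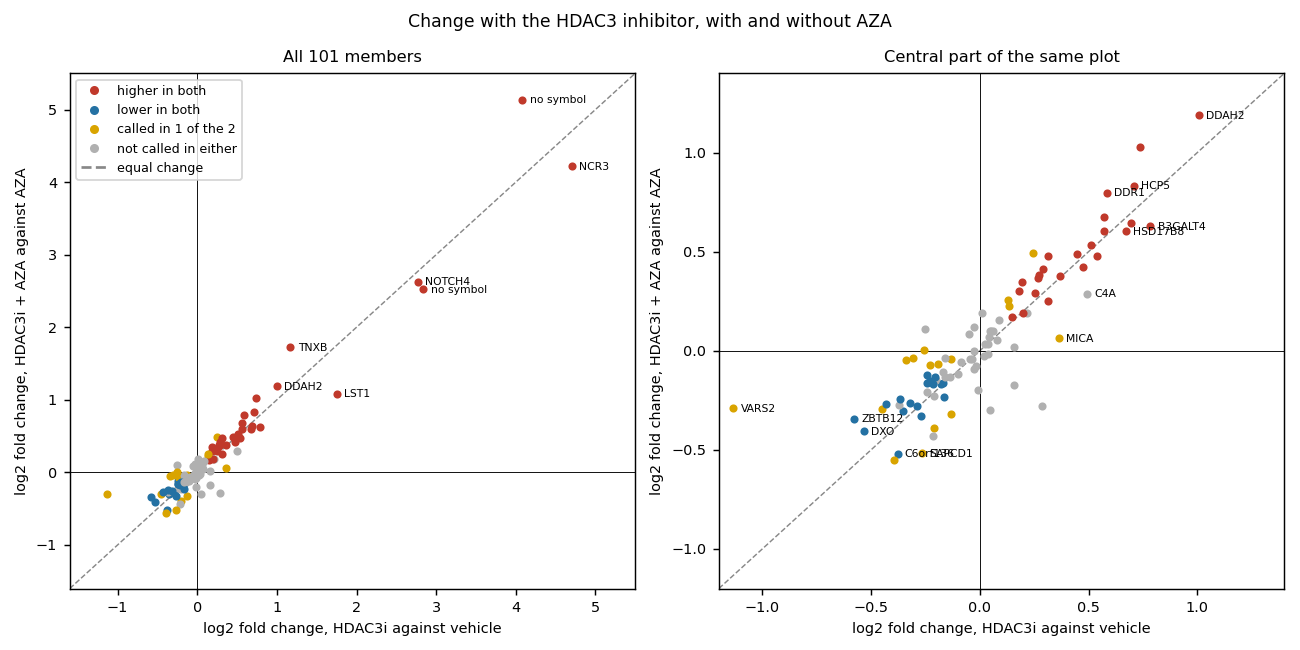
Log2 fold change of each member in the combination against AZA (vertical axis) and in HDAC3i against vehicle (horizontal axis), comparisons that share no library, with all 101 members on the left and the central part on the right. The dashed line marks equal change; 30 members are called higher in both (red), 18 lower in both (blue), and none in opposite directions.

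In the comparison of the combination with HDAC3i alone, which asks what AZA adds, 6 members rose and 0 fell, beside 4.51% and 2.83% of all genes. Limma voom and DESeq2 each called 1 fall, and 15 members had an unadjusted p under 0.05 in edgeR. The 6 were NOTCH4, ATP6V1G2, NCR3, HCP5, NEU1 and DDR1. NCR3 gave 0.46 ± 0.13 (SE; edgeR adjusted p = 0.0272), which was lost with DESeq2 (0.46, adjusted p = 0.459), without AZA library 1 and combination library 3 together (0.44, edgeR adjusted p = 0.0654), without HDAC3i library 1 (0.40, edgeR adjusted p = 0.151), without HDAC3i library 2 (0.48, edgeR adjusted p = 0.0817), without HDAC3i library 3 (0.51, edgeR adjusted p = 0.0572), without combination library 1 (0.46, edgeR adjusted p = 0.0822) and without combination library 3 (0.45, edgeR adjusted p = 0.0827). ATP6V1G2 gave 0.52 ± 0.10 (SE; edgeR adjusted p = 0.00178) and NEU1 0.30 ± 0.06 (SE; edgeR adjusted p = 0.00327). Of these 6 members, 4 were also called with AZA alone: NOTCH4, ATP6V1G2, HCP5 and NEU1.

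The interaction asks whether the AZA effect with the inhibitor differed from that without it. In edgeR 0 members passed in either direction, beside 0.263% called higher and 0.453% called lower among all genes, and 7 members had an unadjusted p under 0.05. DESeq2 and limma voom also called 0. These estimates, on the log2 scale, ranged from -0.67 for LST1 to 1.05 for ENSG00000291111. For the members that rose in the combination against HDAC3i they were -0.14 ± 0.26 (SE; edgeR adjusted p = 0.882) for NOTCH4, 0.11 ± 0.15 (SE; edgeR adjusted p = 0.830) for ATP6V1G2, -0.48 ± 0.34 (SE; edgeR adjusted p = 0.596) for NCR3, 0.13 ± 0.09 (SE; edgeR adjusted p = 0.619) for HCP5, -0.06 ± 0.09 (SE; edgeR adjusted p = 0.834) for NEU1 and 0.21 ± 0.09 (SE; edgeR adjusted p = 0.335) for DDR1. An adjusted p above 0.05 here does not show that the drugs' effects on a member were additive.

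Neighbouring members that start back to back were compared as pairs. There were 15 pairs of members on opposite strands with starts no more than 1000 bases apart. In the combination against vehicle, NELFE and SKIC2 (78 bases apart) both fell, with log2 fold changes of -0.27 ± 0.05 and -0.14 ± 0.05 (SE). WDR46 and PFDN6, a prefoldin subunit (55 bases apart), also both fell, with -0.27 ± 0.05 and -0.17 ± 0.06. CCHCR1 and TCF19 (93 bases apart) were called in opposite directions, with 0.35 ± 0.07 and -0.22 ± 0.05. The same held for ENSG00000272501, with -0.33 ± 0.13, and HCG27, with 0.56 ± 0.13. MICB and its divergent transcript MICB-DT were not called in any of the 3 comparisons with vehicle. Counting was without strand, so reads from the stretch where such partners overlap were not assigned to either.

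Overlap between annotated exons set a limit on many members. Of the 101, 78 shared at least 1 exonic base with another row and 42 shared 10% or more. Among the 59 members that shared less than 10%, 21 rose and 14 fell in the combination. Among the other 42, 8 rose and 13 fell, beside 29.6% and 27.5% of all genes. The large risers NCR3, NOTCH4, LST1, DDAH2, HCP5, DDR1, NEU1 and NRM are among the 59, as is ZBTB12, while ATP6V1G2, DXO, DDX39B and TUBB are among the 42.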

How the data were processed

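Polyadenylated RNA of 12 libraries was sequenced, and expected counts per Ensembl gene were deposited by the authors in 1 table made with featureCounts 2.1.1, per the file headers, with the Ensembl release 114 annotation of GRCh38. Multi-mapping reads were split into fractions, strand was ignored, and reads that overlap several genes were dropped. Input was paired but read pairs were not requested, so the unit behind 1 count (a read or a pair) is not settled here. Per the submitters' processing notes, the tools used were STAR 2.7.11b, Subread 2.1.2, cutadapt 5.1, FastQC 12.1 and bcl2fastq 2.17.1.14. Dropped and split reads lower the counts of members that overlap or resemble other rows.

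Counts were rounded, filtered with filterByExpr and scaled by TMM, and CPM uses the table's library totals. The quasi-likelihood F-test of edgeR 4.0.16 (limma 3.58.1, R 4.3.3) was fitted to all 12 libraries with 1 mean per group, 17869 genes and Benjamini-Hochberg adjustment over all of them. A gene is called at an adjusted p under 0.05. The standard error of a log2 fold change is its size over the square root of F. DESeq2 1.42.0 and limma voom were alternatives, beside other scalings, filters, groups fitted, blocks and each library left out. The fit was tested on simulated counts.

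Members and gene lists were chosen with earlier results of these data known. Genes named are the 8 largest rises and 8 falls against vehicle, 5 and 5 against a single drug and 4 and 4 of the interaction among called members with a symbol, at least 5 CPM and no overlap of libraries. The 4 smallest adjusted p values of each role list and 20 fixed names were added, and members named to complete a list's count were chosen after their values were seen. The values of 1 member of the signalling list are not reported here. Promoters came from RefSeq. Depth was 35947872 to 36337086 counts per library, which limits members near 1 CPM most, and limits for a count of 0 cover counting error only.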

Additional observations from a re-analysis of the deposited data

How the results depend on the processing

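Over the 23 alternative fits, the named members gave 3407 values with the same direction and side of the threshold, 48 that lost their call, 5 that gained one and 0 that reversed. Counts of calls moved by over 1.5 times as follows except where stated, and the causes were not tested. With a size of at least 0.32 on the log2 scale required as well, 9 members fell with HDAC3i (26 without that limit) and 0 with AZA (1). In the combination 10 fell against vehicle (27) and 7 against AZA (22). Rises in the combination against HDAC3i went from 6 to 4, which is 1.5 times and not over it. Restricted to the 59 members that share under 10% of exonic bases, 13 fell with HDAC3i, 14 in the combination against vehicle and 11 against AZA. There the 1 fall with AZA and the 21 rises in the combination against vehicle did not move by over 1.5 times. This setting leaves out 42 members, so no count could be higher. As shares, falls were 22.0% with HDAC3i, 23.7% in the combination against vehicle and 18.6% against AZA. Over all 101 members they were 25.7%, 26.7% and 21.8% in the same order. The filter of 5 CPM in 3 libraries gave 15 falls in the combination against vehicle and 11 against AZA. Under it the estimates themselves also moved upward for every named member whose call it changed: BAG6, HCG18, POLR1H, MICA, DAXX and GPSM3. In the combination against vehicle, BAG6 went from -0.18 to -0.09 and HCG18 from -0.18 to -0.10 on the log2 scale. From the values given above, POLR1H moved to -0.20 and MICA to 0.29 in that comparison, and DAXX to -0.10 with HDAC3i. How far this shift is common to all members was not tested, and it bears on every small fall. Without a filter 2 members fell with AZA. Leaving out AZA library 1 and combination library 3 together gave 3 rises with AZA.

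For the combination against HDAC3i, DESeq2, limma voom and the library number as a replicate block each gave 1 fall in place of 0. Same-numbered libraries deviated from their group means with correlations between -0.0591 and 0.0665, so the numbers were not taken as pairs. With the title number as a replicate block, 28 members rose and 25 fell with HDAC3i, 5 and 1 with AZA, 29 and 27 in the combination against vehicle, 33 and 22 against AZA and 6 and 0 against HDAC3i.

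Without 1 library in turn, rises numbered 25 to 31 with HDAC3i, 3 to 5 with AZA, 26 to 31 in the combination against vehicle, 28 to 33 against AZA and 5 to 8 against HDAC3i. Falls numbered 22 to 28, 0 to 2, 21 to 28, 15 to 22 and 0 to 1 in that order. The AZA rises numbered 3 without AZA library 1, the AZA falls 0 without vehicle library 1 or 3 and 2 without combination library 2, and the fall against HDAC3i appeared without combination library 1. The fit of only the groups compared was not run for the interaction, which needs all 4 groups. Depth limits the members near 1 CPM, whose counts per library are few.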
